A study of Mus musculus with 2 samples.

Results

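H2BK120ub was examined at 9 genes of glycolytic enzymes, HK1, GPI, PFKL, ALDOA, TPI1, GAPDH, ENO1, PKM and LDHA. Each gene was taken as its span in the human genome build hg19 plus 5 kb on each side, and every peak touching this window was counted. The windows held 26 of the 101866 peaks of the WT library and 28 of the 127444 peaks of the UBR7-KO library. All 9 windows held at least 1 peak of each library. Of all stretches of 28093 bp in the genome, the median window length, 59.2% held a WT peak, 66.0% a UBR7-KO peak and 47.6% peaks of both.

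Glycolysis turns glucose into pyruvate in the cytoplasm, and lactate dehydrogenase then reduces pyruvate to lactate. Liver cells that turn into tumor cells often take up more glucose and release more lactate, a state known as aerobic glycolysis. H2BK120ub is the monoubiquitinated form of histone H2B, which the ligase pair RNF20 and RNF40 places over the bodies of transcribed genes as RNA polymerase II moves along them. GAPDH has a further role here, since the study used it as the negative control locus in ChIP-qPCR. Those experiments were made in Huh-7 cells, not in the primary liver cells of these libraries.

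The chromatin came from primary liver cells of 8-week-old male mice of C57BL/6 background, with WT mice behind 1 library and Alb-Cre;UBR7fl/fl mice, called UBR7-KO, behind the other. Both genotypes were grown in the same medium, and the labels call the cells conditionally immortalized. In the UBR7-KO mice, Cre under the albumin promoter deletes the floxed UBR7 gene, an E3 ligase, in hepatocytes, and other liver cells may keep it. The question addressed was how H2BK120ub is placed along genes with and without UBR7, and peaks were called in each library on its own.

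With 1 library per genotype, no difference below has a replicate error and no test between the genotypes was run. Read depth is unknown, and the genotype cannot be told apart from depth or from any other difference between the libraries. The samples are labelled as mouse although the positions are human, and which species the reads came from was not tested. Neither UBR7 nor hepatocyte markers were checked, since positions of other genes in hg19 were not used here. Windows can also reach into neighbouring genes, and several of these 9 genes, GAPDH among them, have processed pseudogenes whose reads may map to more than 1 place.

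Over the 9 windows together, the WT peaks covered 181 kb of 377 kb, or 48.1%. The UBR7-KO peaks covered 121 kb, or 32.2%, a ratio of 0.67. Over the whole lists the same ratio was 0.885, so the ratio was lower in the windows than over the lists. With lists of equal size the ratio was 0.41 in the windows and 0.690 over the lists. Only the UBR7-KO list was shortened for this, to its peaks of highest fold enrichment, so the ratio could not rise. Among peaks whose pileup was 3 or more times the background recovered from the peak caller's values, it was 0.44 in the windows, from 4 WT and 9 UBR7-KO peaks, and 1.03 over the lists. The PFKL peak alone made up 37.3 kb of the 47.2 kb covered by these WT peaks. At this threshold HK1 and PFKL were covered less in UBR7-KO, and GPI, ALDOA and LDHA were covered in UBR7-KO alone. With peaks within 5000 bp of each other merged, the ratio was 0.74 in the windows and 0.954 over the lists. The windows came closer to the lists with a flank of 20 kb, at 0.81, and with only peaks lying wholly inside a window, at 0.83. The coverage was 11.6% of the genome for the WT list and 10.3% for the UBR7-KO list, and the 9 windows were thus more densely covered than the genome in both.

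Windows were covered less in UBR7-KO at 8 of the 9 genes, and more at ALDOA. The count was 8 without a flank, 9 with lists of equal size and 6 with a flank of 20 kb. It was also 6 with peaks within 5000 bp of each other merged, where PFKL was covered equally. Of the genome stretches of 28093 bp with peaks of both lists, 52.9% were covered less in UBR7-KO. The windows themselves differ in length, and the stretches are not limited to genes. The median ratio over the genes was 0.65. Leaving out HK1, whose window is the longest at 142 kb, gave a summed ratio of 0.63.

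**Figure D1:**
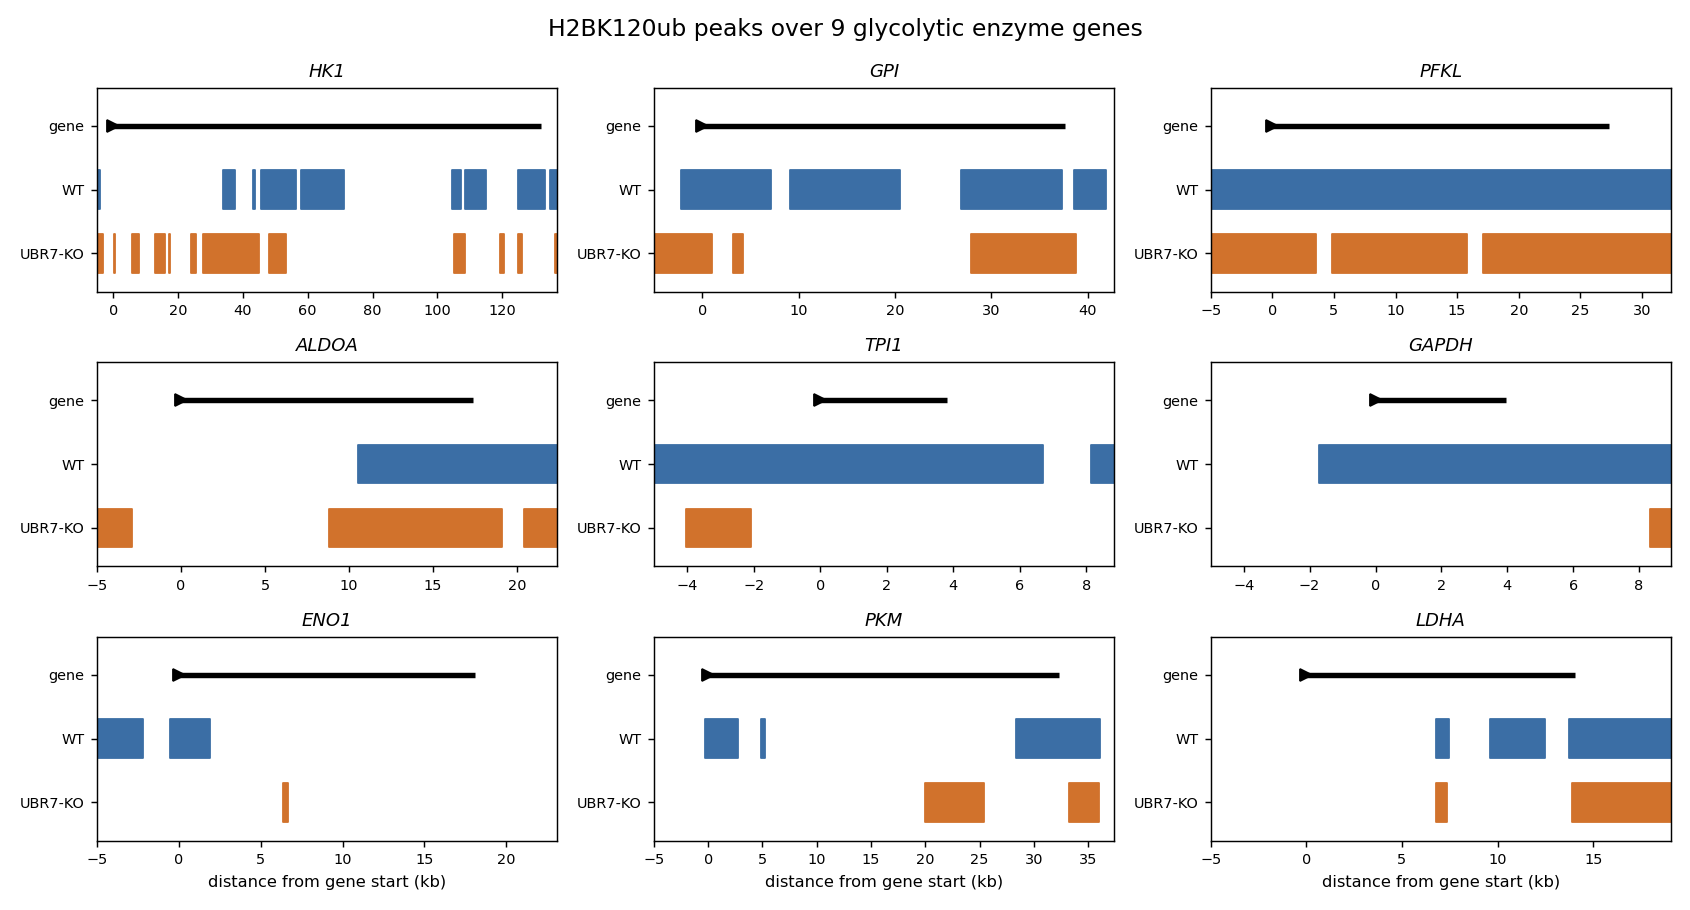
Peaks of the WT library (blue) and the UBR7-KO library (orange) along the 9 genes, each drawn in the direction of transcription with the distance from the gene start in kb on the x axis, clipped at 5 kb outside the gene (black bar). The WT peaks covered the whole of PFKL, TPI1 and GAPDH, and no UBR7-KO peak touched TPI1 or GAPDH itself.

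The enzymes were then described in the order of the pathway, beginning with the steps that prepare glucose. HK1 is the hexokinase that phosphorylates glucose in most tissues. Its span, chr10:71029756-71161638, is the longest of the 9 at 132 kb, and its window carried 9 WT peaks and 12 UBR7-KO peaks. They covered 34.7% of the window in WT and 26.5% in UBR7-KO. The order turned to a ratio of 1.03 when peaks within 5000 bp of each other were merged.

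Along HK1 the libraries were placed differently. The part of the gene closest to the start was covered for 9.87% in WT and 54.0% in UBR7-KO when the span was split into 3 parts of equal length. In the middle part the shares were 54.6% in WT and 13.9% in UBR7-KO. The largest WT peak, 13228 bp long, lay 57895 to 71122 bp downstream of the start and had no UBR7-KO counterpart, the nearest being 4758 bp away. The largest UBR7-KO peak, 17146 bp long, lay 27793 to 44938 bp downstream and overlapped 2 WT peaks. From the start to 25375 bp downstream, 5 UBR7-KO peaks of 325 to 3154 bp stood with no WT peak on them. Only 19.2% of the length covered by either list at HK1 was covered by both.

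GPI converts glucose 6-phosphate into fructose 6-phosphate. It lies on the most densely covered chromosome among these genes, chromosome 19, at chr19:34855645-34893318. Its window was covered for 72.3% in WT by 4 peaks and for 37.6% in UBR7-KO by 3 peaks, beside 43.0% and 33.2% of the chromosome. Both libraries had a peak over the GPI start, of which the WT peak was 9435 bp long and the UBR7-KO peak 7860 bp. Behind it, a WT peak of 11389 bp at 9107 to 20495 bp downstream had no UBR7-KO counterpart. The largest peak of the UBR7-KO list in this gene, 10861 bp, lay over the 3′ part of the gene and its end and shared 87.8% of its length with WT peaks.

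PFKL is the liver form of phosphofructokinase, which commits fructose 6-phosphate to glycolysis. At chr21:45719942-45747259 its window was the most fully covered of the 9 in both libraries. A WT peak of 66521 bp, from 30598 bp upstream to 35922 bp downstream of the start, covered 100% of the window, at a pileup of 9.85 and a fold enrichment of 2.87. Both values were the highest among the 26 WT peaks. In UBR7-KO, 3 peaks of 23955, 10933 and 22698 bp covered 93.1% of the window with short gaps between them. The covered length was 37.3 kb in WT and 34.7 kb in UBR7-KO, and with a flank of 20 kb the ratio turned to 1.12.

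ALDOA is aldolase A, which splits fructose 1,6-bisphosphate into the triose phosphates and is the form of muscle and growing cells, whereas adult hepatocytes mainly use aldolase B. ALDOA, chr16:30064411-30081778, was the exception to the order of the libraries, with 43.3% of its window covered in WT and 52.4% in UBR7-KO. Lists limited to equal size, where only the UBR7-KO list was shortened, turned this to a ratio of 0.34. The ratio was 1.25 without a flank, 1.36 with a flank of 20 kb and 1.32 with peaks within 5000 bp merged. Both lists left the start of the span bare and covered the 3′ part of the gene fully. The WT peak, 12981 bp long, began 10513 bp downstream of the start, and the UBR7-KO peak over the same place, 10299 bp long, began 8786 bp downstream. A UBR7-KO peak of 30155 bp ended 2924 bp upstream of the span, with 93.1% of its length outside the window.

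TPI1 interconverts the triose phosphates. Its short span, chr12:6976283-6980110, lay entirely within a WT peak of 12474 bp, which had a pileup of 8.13 and a fold enrichment of 2.43. In UBR7-KO the gene was covered for 0%, and the only peak in the window, 1940 bp long, lay 4024 to 2085 bp upstream of the start. That peak sat wholly within the WT peak. The covered share of the window was 89.6% in WT and 14.0% in UBR7-KO, a ratio of 0.16. With a flank of 20 kb the ratio was 0.49.

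GAPDH oxidizes glyceraldehyde 3-phosphate and is widely used as a reference gene. Its span, chr12:6643585-6647537, was covered for 100% in WT by a peak of 31146 bp at chr12:6641856-6673001, which began 1729 bp upstream of the start and ran 25464 bp past the end of the gene. In UBR7-KO the gene was covered for 0%. The nearest UBR7-KO peak, 17388 bp at chr12:6651920-6669307, began 4383 bp beyond the gene end and lay wholly within the WT peak.

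At GAPDH the size of the difference thus depended on the window. With 5 kb on each side the WT peaks covered 10.7 kb and the UBR7-KO peaks 0.618 kb, a ratio of 0.058. With a flank of 20 kb the covered lengths were 25.7 kb and 24.2 kb, a ratio of 0.94. The pileup of the WT peak was 7.14 and its fold enrichment 2.24, and the UBR7-KO peak had 5.23 and 2.24. Fold enrichment is the peak caller's ratio of the pileup to the background of the same library, taken here with 1 added to both. These 2 folds were alike while the gene itself was covered in 1 library only. Without the added 1, the ratio of pileup to background was 2.71 in WT and 2.93 in UBR7-KO.

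ENO1 is the enolase of most tissues, which forms phosphoenolpyruvate. It lies on the reverse strand at chr1:8921059-8939151 and was the least covered of the 9 windows in both libraries, with 18.6% in WT and 1.03% in UBR7-KO. In WT, a peak of 2443 bp covered the start, from 532 bp upstream to 1910 bp downstream, and a peak of 3818 bp lay further upstream. The UBR7-KO list had only a peak of 288 bp, the shortest of its 28, at 6351 to 6638 bp downstream. The libraries shared 0 kb at ENO1, and it was the only gene of the 9 with no shared length.

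PKM makes pyruvate and ATP, whereas adult hepatocytes mainly use PKLR for this step. It lies on the reverse strand at chr15:72491370-72523727, and its window was covered for 26.1% in WT and 19.1% in UBR7-KO. A WT peak of 3052 bp covered the start, from 290 bp upstream to 2761 bp downstream, and the nearest UBR7-KO peak was 13495 bp away. At the other end of the gene the libraries met. A WT peak of 7681 bp spanned the gene end, and a UBR7-KO peak of 2728 bp in the downstream flank lay wholly within it. Between these places, a UBR7-KO peak of 5382 bp at 20002 to 25383 bp downstream had no WT counterpart.

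LDHA forms lactate from pyruvate, the product that the study measured as a readout of glycolysis. At chr11:18415936-18429972 both libraries left the start and the upstream flank uncovered. A small peak, of 676 bp in the WT list and 568 bp in the other, lay at the same place in the middle of the gene, 6785 and 6798 bp downstream of the start. The largest peak of each library, of 10516 bp for WT and 7641 bp for UBR7-KO, began 13711 and 13864 bp downstream, close to the gene end, and ran past the window. An additional WT peak of 2844 bp in the gene had no counterpart. The UBR7-KO peaks of LDHA lay wholly within WT peaks. The window was covered for 36.8% in WT and 23.9% in UBR7-KO, an order that turned to a ratio of 1.03 with a flank of 20 kb.

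**Figure D2:**
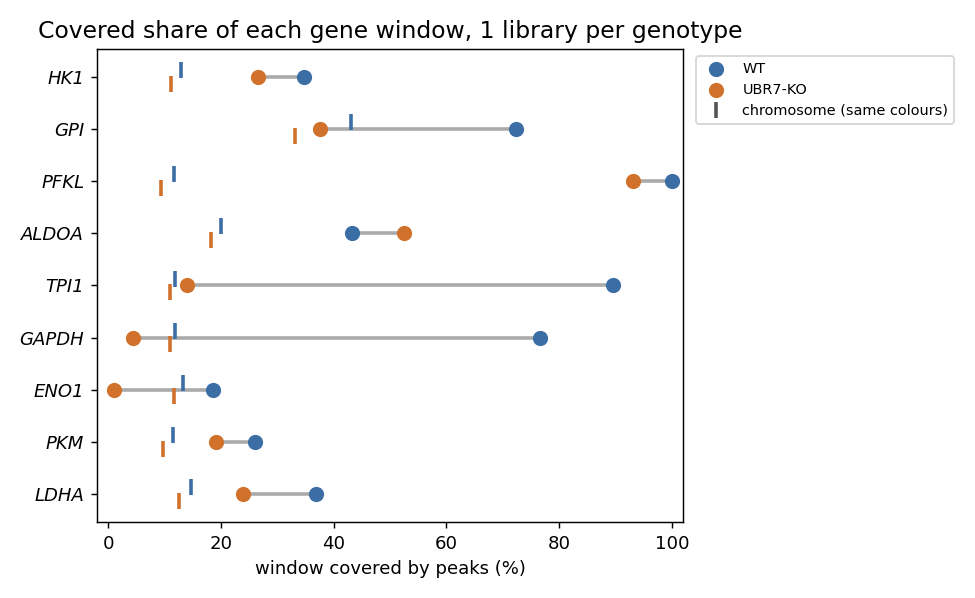
Share of each gene window covered by peaks (x axis, %) in WT (blue points) and UBR7-KO (orange points), with ticks for the share of the same chromosome. The points lay furthest apart at TPI1 (89.6% and 14.0%) and GAPDH (76.6% and 4.43%), and ALDOA was the only gene with the UBR7-KO point to the right.

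The 9 genes were also set beside their own chromosomes. In WT, all 9 windows were covered more densely than their chromosome. In UBR7-KO this was so for 7 of 9, the exceptions being GAPDH, with 4.43% beside 11.0% of chromosome 12, and ENO1, with 1.03% beside 11.7% of chromosome 1. Chromosomes also hold sequence outside genes, so a window chosen on a gene is not a like-for-like stretch.

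Gene starts were examined next, as the first base of the span in the direction of transcription with 1 kb on each side. A WT peak reached this stretch at 6 of 9 genes, GPI, PFKL, TPI1, GAPDH, ENO1 and PKM. In UBR7-KO it was reached at 3 of 9, HK1, GPI and PFKL, and both libraries had a peak only at GPI and PFKL. Of all stretches of 2001 bp in the genome, 18.0% held a WT peak, 18.2% a UBR7-KO peak and 8.02% both. At HK1 the UBR7-KO peak was only 325 bp long and began 163 bp downstream, so the start base itself was covered at 2 of 9 genes in UBR7-KO and at 6 of 9 in WT. HK1 and ALDOA are known to use several promoters, and the start of the span is not the only start of these 2 genes. Among peaks whose pileup was 3 or more times the background, the start stretch was reached at 1 gene in each library.

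**Figure D3:**
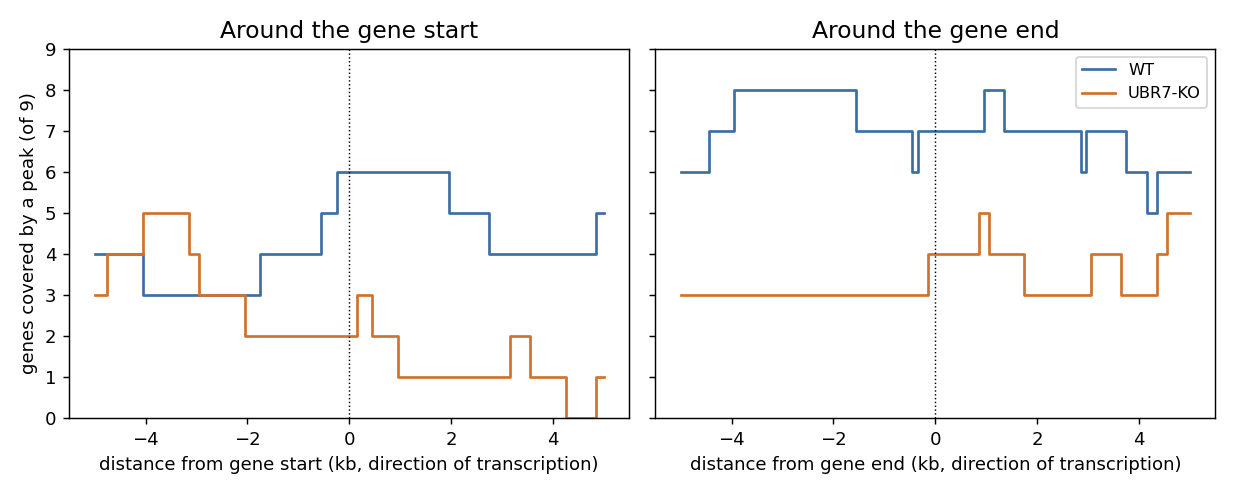
Number of the 9 genes covered by a peak (y axis) at each 100 bp step within 5 kb of the gene start (left) and of the gene end (right), for WT (blue) and UBR7-KO (orange). At the start base 6 genes were covered in WT and 2 in UBR7-KO, and around the gene end WT covered more genes at all 101 positions. Neighbouring positions share the same peaks.

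In the 5 kb before the start, the number of genes covered averaged 3.68 in WT and 3.14 in UBR7-KO, and in the 5 kb after the start it averaged 4.96 and 1.20. Of the 101 positions around the start, 74 had more genes covered in WT and 11 had more in UBR7-KO. Neighbouring positions share the same peaks and are not independent. TPI1 and GAPDH are shorter than 5 kb, so their stretch after the start runs past the gene end. Around the gene end WT covered 5 to 8 of the 9 genes and UBR7-KO 3 to 5.

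Each span was then split into 3 parts of equal length. In the 5′ part the median covered share was 31.7% in WT and 0% in UBR7-KO, where 6 of the 9 genes had no coverage. Summed over the genes, that part was covered to 33.1% in WT and 35.2% in UBR7-KO. HK1 was the only gene covered more in UBR7-KO there, with 9.87% in WT beside 54.0%. In the middle part the medians were 54.6% and 12.1%, and in the 3′ part 82.9% and 12.7%. The downstream flank had medians of 74.2% and 21.0%, whereas the upstream flank had 34.6% and 33.1%. Differences within genes, WT minus UBR7-KO, had a median of 28.4 points in the 5′ part and 14.4 in the middle part. In the 3′ part their median was only 4.81 points, and in the downstream and upstream flanks 26.4 and 0 points. Summed over the genes, the 3′ part was covered to 54.0% in WT and 35.9% in UBR7-KO. In the 3′ part and the downstream flank, 6 genes were covered more in WT, 0 genes more in UBR7-KO and 3 genes equally. In the middle part 3 genes, ALDOA, ENO1 and PKM, were covered more in UBR7-KO. The upstream flank was covered more in WT at 4 genes, TPI1, GAPDH, ENO1 and PKM, and more in UBR7-KO at 3, HK1, GPI and ALDOA.

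**Figure D4:**
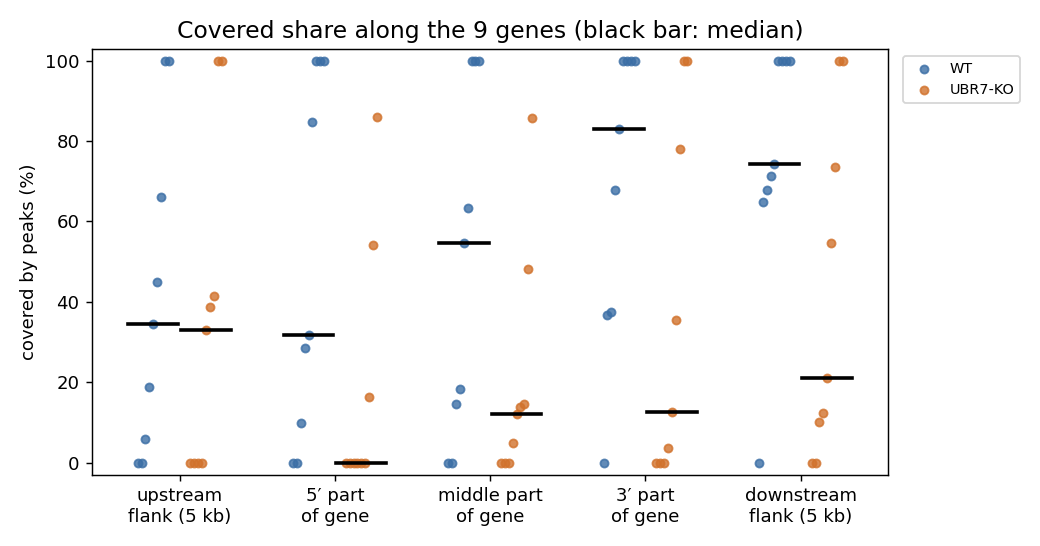
Share covered by peaks (y axis, %) in the 5 kb upstream flank, the 3 equal parts of the gene and the 5 kb downstream flank, with 1 point per gene for WT (blue) and UBR7-KO (orange) and the median as a black bar. The medians were close in the upstream flank (34.6% and 33.1%) and further apart in the 3′ part (82.9% and 12.7%). The median difference within genes in the 3′ part was 4.81 points.

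Peaks of these genes often had a counterpart in the other library. A counterpart, meaning an overlap of at least 1 bp, was found for 18 of 26 WT peaks (69.2%, 95% Wilson interval 50.01 to 83.5). The share over the whole WT list was 40.2%. In UBR7-KO a counterpart was found for 20 of 28 peaks (71.4%, 95% Wilson interval 52.9 to 84.7), beside 35.2% over that list. The intervals cover counting error only, and peaks of the same gene are not independent. The share depends on how overlap is defined and was 30.8% in WT and 25% in UBR7-KO when 50% of both peaks had to be shared. By that rule 15.0% of the whole WT list and 12.0% of the whole UBR7-KO list were matched.

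Long peaks overlap more readily, and the peaks counted at these genes were long. A long peak also touches a window more easily, so the count itself favours length. Peaks over 10000 bp made up 9 of the 26 in WT and 8 of the 28 in UBR7-KO, or 34.6% and 28.6%, beside 7.58% and 3.75% of the whole lists. Among them 7 of 9 and 8 of 8 had a counterpart, beside 85.2% and 94.2% of all peaks of that length. For lengths between 1000 and 10000 bp the counts were 9 of 14 in WT and 11 of 16 in UBR7-KO, beside 45.0% and 42.5%. Under 1000 bp it was 2 of 3 and 1 of 4, beside 22.7% and 19.0%.

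By length, 84.1 kb of the windows were covered in both libraries. This was 46.5% of the length covered in WT and 69.4% of that in UBR7-KO, beside 40.5% and 45.7% over the whole lists. At PFKL, TPI1, GAPDH and LDHA all of the length covered in UBR7-KO lay within WT peaks. At ENO1 none did, and at PKM and HK1 33.6% and 37.2% did.

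Length set these peaks apart from their lists more than fold enrichment did. Counting every peak that touches a window favours long peaks, and how much of the length difference this explains was not tested. WT peaks at these genes had a median length of 7051.5 bp, beside 1584.5 bp over the list, and UBR7-KO peaks a median of 3204.5 bp, beside 1361.5 bp. The median peak stood at the 88.0th percentile by length in WT and at the 78.7th in UBR7-KO. By fold enrichment it stood at the 48.3rd and the 54.0th percentile of its own list. The median fold enrichment was 2.19 in WT and 2.17 in UBR7-KO, beside 2.20 and 2.15 over all peaks. Of the WT peaks, 3 had a fold enrichment of 2.5 or more, 1 at PFKL and 2 at HK1, beside 16.9% of the WT list. Of the UBR7-KO peaks 0 did, beside 9.77% of their list.

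Pileups ranged from 5.73 to 9.85 in WT and from 3.92 to 5.86 in UBR7-KO. The background recovered under these peaks moved with them, from 2.02 to 3.29 in WT and from 1.37 to 2.03 in UBR7-KO. The part of sequencing depth in the order of the libraries was not tested. Across the whole lists the lowest recovered background was also higher in WT, 1.81 beside 1.16.

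**Figure D5:**
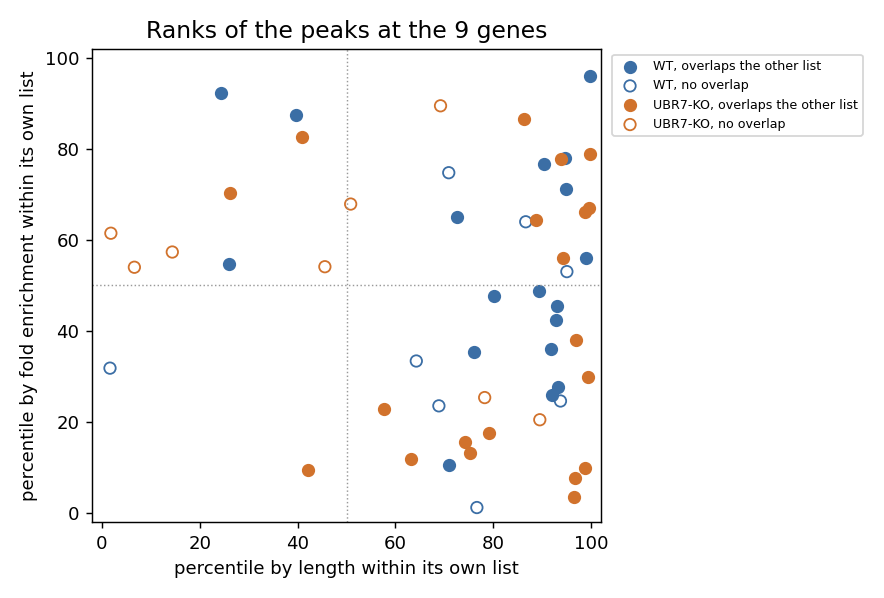
Percentile by length (x axis) and by fold enrichment (y axis) of each peak at the 9 genes within its own list, WT in blue (26 peaks) and UBR7-KO in orange (28 peaks), filled where it overlaps a peak of the other list. Of these peaks, 22 in WT and 21 in UBR7-KO lie above the middle of their list by length, and 12 and 15 by fold enrichment.

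Several peaks were larger than the genes they touched. In WT 9 of 26 peaks and in UBR7-KO 8 of 28 ran past their window, and the share outside it reached 92.8% in WT and 96.4% in UBR7-KO. At PFKL, ALDOA, TPI1 and GAPDH no WT peak lay wholly inside the window. When such peaks were left out, the covered lengths were 97.6 kb in WT and 81.1 kb in UBR7-KO, and the genes covered less in UBR7-KO numbered 5.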

How the data were processed

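H2BK120ub ChIP-seq gave 1 peak list for WT and 1 for UBR7-KO primary liver cells. The authors aligned the reads to hg19 and called peaks in each library with MACS under a q-value threshold not given in the sources used here. The study's methods name BWA aln as the aligner, whereas the submitters' processing notes name Bowtie 1.1.2. Use of a control library and the broad or narrow mode are not stated. The deposited pileup is a signal that depends on depth. The deposited fold enrichment is a ratio over the background of the same library, taken here with 1 added to both, so it can depend on depth too. The background was recovered as pileup plus 1 over fold enrichment, minus 1.

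The 6 blank rows of the UBR7-KO list were removed. Gene spans were given with the choice of genes, the strand came from textbook knowledge, and positions count from 1. Genes, spans and measures were chosen with earlier results of these data known. All 9 genes are named, with the longest peak of each list and peaks over the start. PKLR and aldolase B are named as background only, and positions of other pathway genes were not used here. No sequence is printed, since a genome of build hg19 was not used here. Genome shares refer to the stretch up to the last peak of each chromosome.

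Overlaps and covered lengths used Python 3.11.15, numpy 2.4.6, pandas 2.3.3 and scipy 1.17.1, and the code was tested on simulated intervals against bedtools 2.31.1. No test was run between the genotypes, which have 1 library each.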

Additional observations from a re-analysis of the deposited data

How the results depend on the processing

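Of 104 values recomputed, 65 stayed within 1.5 times of the reported value or, for shares, within its Wilson interval, 39 moved further, and the summed ratio, UBR7-KO over WT, did not reach 1 in any setting. A flank of 20 kb gave 42 and 46 peaks covering 308 kb in WT and 251 kb in UBR7-KO. A fold enrichment of at least 2.5 left 3 WT and 0 UBR7-KO peaks, covering 38.9 kb and 0 kb (ratio 0), with 0% of WT peaks matched, starts reached at 1, 0 and 0 genes (WT, UBR7-KO, both) and 2 genes covered less in UBR7-KO. A pileup of at least 3 times the background left 4 and 9 peaks covering 47.2 and 20.9 kb (ratio 0.44), with 0% and 11.1% matched, starts reached at 1, 1 and 0 genes and 2 genes covered less in UBR7-KO. These thresholds leave few peaks. Under the latter, ALDOA, GPI and LDHA were covered in UBR7-KO alone, and PFKL, with 37.3 of the 47.2 kb, in WT alone.

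Lists of equal size, with only the UBR7-KO list shortened, gave 73.4 kb in UBR7-KO, a ratio of 0.41 and 34.6% of WT peaks matched. Merging within 5000 bp gave 15 and 18 peaks and 86.7% of WT peaks matched. Requiring 50% of both peaks matched 30.8% and 25%, and 50% of the counted peak matched 42.3% of WT peaks. Within 5 kb of the start, 5 genes were reached in UBR7-KO and 4 in both. Peaks wholly inside their window, an alternative chosen after seeing the data, numbered 17 in WT and covered 97.6 kb, with 5 genes covered less in UBR7-KO. Here TPI1, PFKL and ALDOA had UBR7-KO coverage alone. Where not set by fewer peaks or another window, the cause was not tested. Leaving out 1 gene, with all peaks kept, gave summed ratios of 0.60 to 0.71. No paired analysis was possible because there is a lone library for either genotype, and no replicate could be left out.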
